A study of Homo sapiens with 16 samples.

Results

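BMAL1 binding at the 8 h and 12 h time points was compared between U2OS-CHRONO and U2OS cells by the peaks found at both times of one line and at neither time of the other. U2OS is a human osteosarcoma cell line widely used to follow the circadian clock in culture, and U2OS-CHRONO is a line of the same cells that the series title and design tie to CHRONO, with a Myc-tagged form named as a precipitated protein. The 4 peak lists compared here are U2OS-CHRONO at 8 h, U2OS-CHRONO at 12 h, U2OS at 8 h and U2OS at 12 h, out of 16 samples, 13 deposited peak lists and 12 BMAL1 lists in the series. They were chosen by their time labels as the times with the shortest lists. All 4 cultures had received 200 nM dexamethasone, which aligns the clocks of cultured cells. Cells were collected every 4 h at 6 labelled times, starting 4 h ahead of the low point of a luciferase reporter driven by the BMAL1 promoter. Whether U2OS-CHRONO is a single clone, and which promoter drives the added protein, is not given in the sources used here. There was 1 library per line and time, so a difference between the lines at one time and a difference between single libraries cannot be told apart, and 2 pairs of times cannot give an exact two-sided p below 0.5.

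BMAL1 is a basic helix-loop-helix transcription factor that pairs with CLOCK and binds E-box elements, most often CACGTG, at the genes of its own feedback loop. Among the targets are the PER and CRY genes, whose products repress the pair, the REV-ERB genes NR1D1 and NR1D2, and the PAR-bZIP factors DBP, TEF and HLF, which carry the rhythm to output genes. CHRONO, the product of CIART, is a further repressor that binds the BMAL1 and CLOCK pair.

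The promoters printed next are examples, chosen after their values were seen, of each way in which the peak lists of the lines differed or agreed. They are RefSeq sequences of GRCh38.p14, 250 bases before to 50 bases after an annotated transcription start, 5′ to 3′ on the strand of the gene, and capitals mark CACGTG and, in CRY1, its variant AACGTG. HLF (chr17:55264710-55265009, plus strand) had a peak at both U2OS times and at neither U2OS-CHRONO time. SIRT1 (chr10:67884406-67884705, plus strand) and ATIC (chr2:215311809-215312108, plus strand) had a peak at both U2OS-CHRONO times and at neither U2OS time. TEF is shown with an outer promoter under a peak in U2OS-CHRONO alone (chr22:41367205-41367504, plus strand) and an inner promoter under a peak in all 4 lists (chr22:41381692-41381991, plus strand). The calls at SIRT1 and at the outer TEF promoter did not hold once the lists were made equal in number at each time. CDK4 (chr12:57752261-57752560, minus strand) and CRY1 (chr12:107093500-107093799, minus strand) had a peak in all 4 lists but were ranked by score in opposite directions between the lines.
HLF: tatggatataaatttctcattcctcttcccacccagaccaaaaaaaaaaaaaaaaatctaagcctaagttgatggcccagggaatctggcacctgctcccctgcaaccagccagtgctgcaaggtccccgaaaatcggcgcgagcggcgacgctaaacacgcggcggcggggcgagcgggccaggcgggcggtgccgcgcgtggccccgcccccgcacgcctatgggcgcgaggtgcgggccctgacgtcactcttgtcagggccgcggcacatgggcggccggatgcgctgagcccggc
SIRT1: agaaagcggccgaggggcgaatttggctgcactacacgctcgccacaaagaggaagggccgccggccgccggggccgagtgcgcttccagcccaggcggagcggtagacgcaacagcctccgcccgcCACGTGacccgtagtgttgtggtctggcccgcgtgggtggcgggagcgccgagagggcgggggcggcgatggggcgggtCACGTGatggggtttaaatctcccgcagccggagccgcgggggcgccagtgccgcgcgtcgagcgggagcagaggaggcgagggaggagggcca
ATIC: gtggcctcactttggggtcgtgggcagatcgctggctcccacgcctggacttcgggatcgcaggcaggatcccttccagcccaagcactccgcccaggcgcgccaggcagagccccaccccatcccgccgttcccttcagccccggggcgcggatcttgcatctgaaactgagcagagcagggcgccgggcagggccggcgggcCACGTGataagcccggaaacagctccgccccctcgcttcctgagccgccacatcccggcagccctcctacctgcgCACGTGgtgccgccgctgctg
TEF, outer promoter: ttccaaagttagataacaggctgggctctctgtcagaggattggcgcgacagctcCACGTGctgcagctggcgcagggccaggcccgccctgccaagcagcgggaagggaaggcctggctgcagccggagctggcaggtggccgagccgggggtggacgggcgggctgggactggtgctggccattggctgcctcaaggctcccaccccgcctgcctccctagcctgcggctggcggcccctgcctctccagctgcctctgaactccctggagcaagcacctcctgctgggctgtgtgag
TEF, inner promoter: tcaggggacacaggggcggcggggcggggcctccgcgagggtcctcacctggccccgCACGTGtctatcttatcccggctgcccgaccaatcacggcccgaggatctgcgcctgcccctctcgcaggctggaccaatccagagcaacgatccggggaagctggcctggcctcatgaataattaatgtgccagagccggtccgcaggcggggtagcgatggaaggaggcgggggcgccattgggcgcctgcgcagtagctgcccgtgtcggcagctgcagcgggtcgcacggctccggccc
CDK4: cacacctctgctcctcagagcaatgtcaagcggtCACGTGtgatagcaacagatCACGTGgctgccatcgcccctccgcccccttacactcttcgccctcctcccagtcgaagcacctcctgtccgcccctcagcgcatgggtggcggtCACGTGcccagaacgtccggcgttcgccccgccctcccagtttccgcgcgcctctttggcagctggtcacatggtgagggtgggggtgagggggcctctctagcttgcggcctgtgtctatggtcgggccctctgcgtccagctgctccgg
CRY1: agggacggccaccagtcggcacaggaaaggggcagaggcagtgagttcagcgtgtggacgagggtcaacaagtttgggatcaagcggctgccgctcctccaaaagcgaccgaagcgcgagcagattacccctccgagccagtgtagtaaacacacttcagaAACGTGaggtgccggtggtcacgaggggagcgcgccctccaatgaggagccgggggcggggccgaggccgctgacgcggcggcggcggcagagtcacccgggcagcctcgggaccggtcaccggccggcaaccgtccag

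The HLF window held no CACGTG on either strand, and neither the spelling CACGTT nor its reverse complement AACGTG. SIRT1 held CACGTG 123 and 44 bases before the start, counted to the first base of the motif. ATIC held it 46 bases before and 30 bases into the transcript. The outer TEF promoter had the motif 195 bases and the inner one 193 bases before the start. CDK4 had 3 copies, 216, 196 and 101 bases before the start. CACGTG was found in 8.34% of all 22199 RefSeq promoter windows of this length. It was found in 53.2% of the 139 windows under a peak at both U2OS-CHRONO times and neither U2OS time (Wilson 95% interval 45.0 to 61.3%), and in 51.4% of the 70 windows under a peak in all 4 lists (40.0 to 62.8%). These intervals overlap, and the difference was not tested. Each list taken whole gave 51.0% and 45.6% in U2OS-CHRONO at 8 and 12 h, and, in U2OS, 38 of 76 windows at 8 h and 57.1% at 12 h. CACGTT or its complement was in 5.43% of all windows, in 12.2% of the U2OS-CHRONO-only windows and in 21.4% of the shared ones.

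The comparison of the lines asked which sites were called in one of them and not in the other when the lists were shortest. U2OS-CHRONO held 2429 peaks at 8 h and 3919 at 12 h, against 337 and 1808 in U2OS, so its list was 7.21-fold longer at 8 h and 2.17-fold longer at 12 h. Peaks that overlapped by at least 1 bp were joined over the 4 lists into 5904 regions. Of these, 781 (13.2%) had a peak at both U2OS-CHRONO times and neither U2OS time, 7 (0.119%) at both U2OS times and neither U2OS-CHRONO time, and 172 (2.91%) in all 4 lists. A further 472 regions had a peak at both U2OS-CHRONO times and in U2OS at 12 h alone. The mean log2 ratio of list lengths, U2OS-CHRONO over U2OS, was 1.98 at 8 and 12 h and 0.83 ± 0.66 (SD, n = 4 times) at the other times. An exact permutation test over the 6 time labels gave a two-sided p of 0.20 for that difference of 1.16, against a smallest possible p of 0.0667 and with an adjusted p of 0.20 over 3 tests. The times were chosen for their short lists, so this test carries no weight of its own.

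Much of the imbalance went with list length. With the longer list of each time shortened to its top scores, 337 peaks at 8 h and 1808 at 12 h in each line, the joined regions fell to 3028, of which 58 (1.92%) were U2OS-CHRONO-only, 18 (0.594%) U2OS-only and 116 (3.83%) common to all 4 lists. The score is the authors' own value per peak, as deposited, with a definition that is not stated. Apart from a limit of 100 on all lists among the alternatives, it was used only to order peaks within a list. Scores of different lists are printed side by side, and whether they share a scale is unknown. Shortening kept U2OS-CHRONO peaks with a score of at least 146 at 8 h and 71.8 at 12 h, while the full U2OS lists reached down to 50. With 337 peaks in each of the 4 lists, 83 of 721 regions (11.5%) were U2OS-CHRONO-only, 35 (4.85%) U2OS-only and 91 (12.6%) common. At that size 72.1% of U2OS-CHRONO peaks at 8 h overlapped a U2OS-CHRONO peak at 12 h. Within U2OS, 44.2% of the peaks at 8 h overlapped a peak at 12 h. Between the lines, 36.2% of U2OS-CHRONO peaks at 8 h overlapped a U2OS peak at 8 h and 52.5% a U2OS peak at 12 h. Of U2OS-CHRONO peaks at 12 h, 35.3% overlapped a U2OS peak at 8 h and 51.6% a U2OS peak at 12 h. Both overlaps with U2OS at 12 h were thus above the 44.2% within U2OS. By these region counts, the U2OS-CHRONO-only regions stayed more numerous than the U2OS-only ones at every list size tried. The factor was much smaller at equal size than in the lists as deposited. The pools they came from differed too. With 337 peaks in each list, 240 regions had a peak at both U2OS-CHRONO times and 148 at both U2OS times. At equal number at each time these were 333 and 195.

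**Figure D1:**
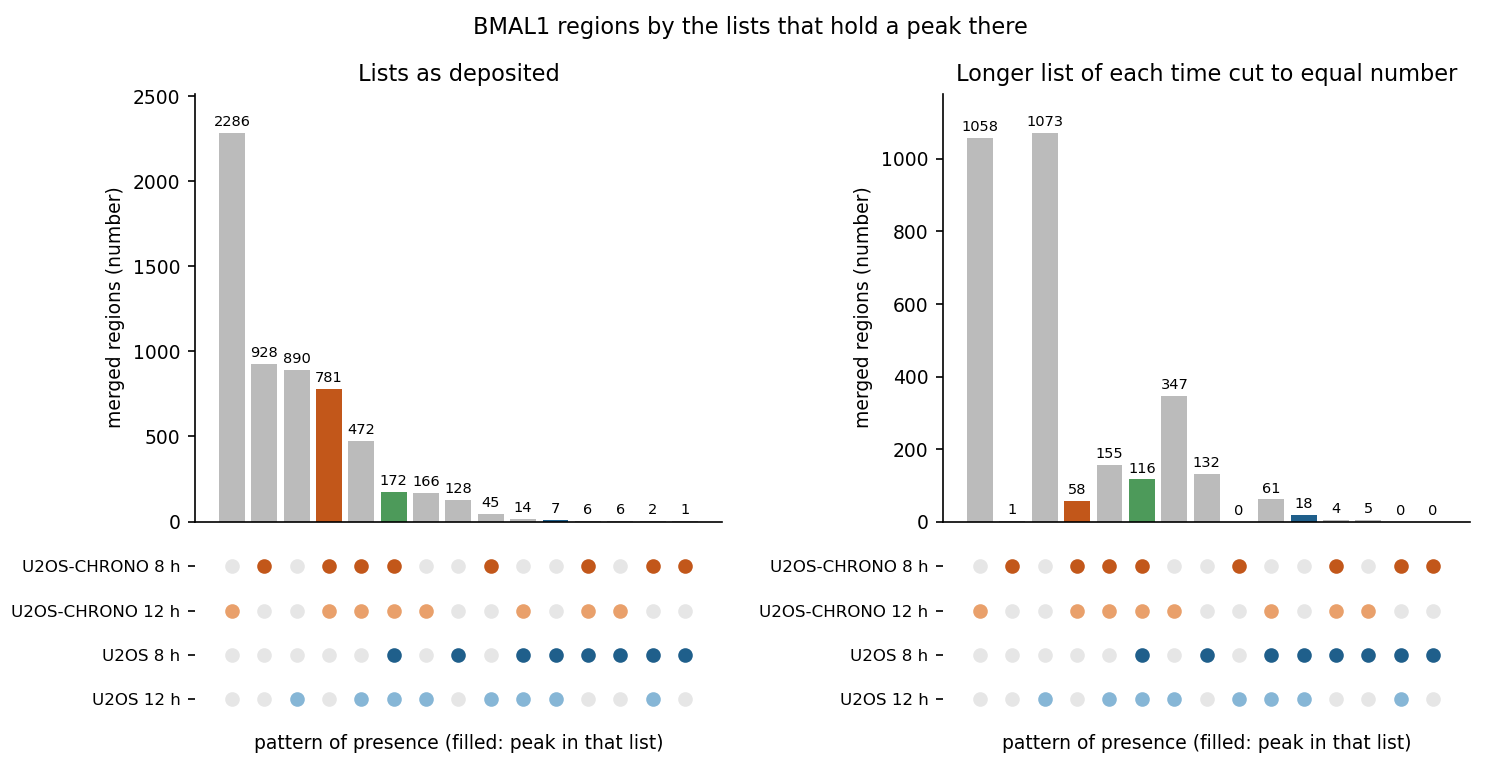
Number of merged BMAL1 regions (vertical axis) for each pattern of presence in the 4 lists, shown by filled dots under each bar, with the lists as deposited on the left and at equal number at each time on the right. Orange bars are the U2OS-CHRONO-only regions (781 and 58), blue bars the U2OS-only regions (7 and 18) and green bars the regions of all 4 lists (172 and 116).

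U2OS at 8 h stood apart by few and wide peaks, which bears on every region called absent from it. Its 337 peaks had a median width of 743 bp, against 274 bp in U2OS-CHRONO at 8 h, 328 bp in U2OS-CHRONO at 12 h and 208 bp in U2OS at 12 h. Peaks of 1000 bp or more made up 0.247% and 0.638% of the U2OS-CHRONO lists at 8 and 12 h, against 15.1% of the U2OS list at 8 h and 0.166% at 12 h. The width was also seen at identical sites. In the 172 regions of all 4 lists the median widths were 428 and 551 bp in U2OS-CHRONO and 801 and 350 bp in U2OS at 8 and 12 h, and the U2OS 8 h peak was the widest of the 4 in 147. At CRY2, the U2OS peak measured 1995 bp at 8 h and 723 bp at 12 h, and the U2OS-CHRONO peaks 596 and 552 bp. Of the 337 peaks, 182 (54.0%) overlapped a peak of U2OS-CHRONO at 8 h and 196 (58.2%) a peak of U2OS at 12 h, while 128 overlapped none of the other 3 lists and 120 none of the other 11 BMAL1 lists. Only 11 of them spanned 2 or more U2OS-CHRONO 8 h peaks. The number of line-only regions differed by at most 4 when every peak was set to 500 bp around its centre, or when overlap had to reach 50% of the shorter peak. What part the wide peaks of U2OS at 8 h have in the short list was not tested.

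**Figure D2:**
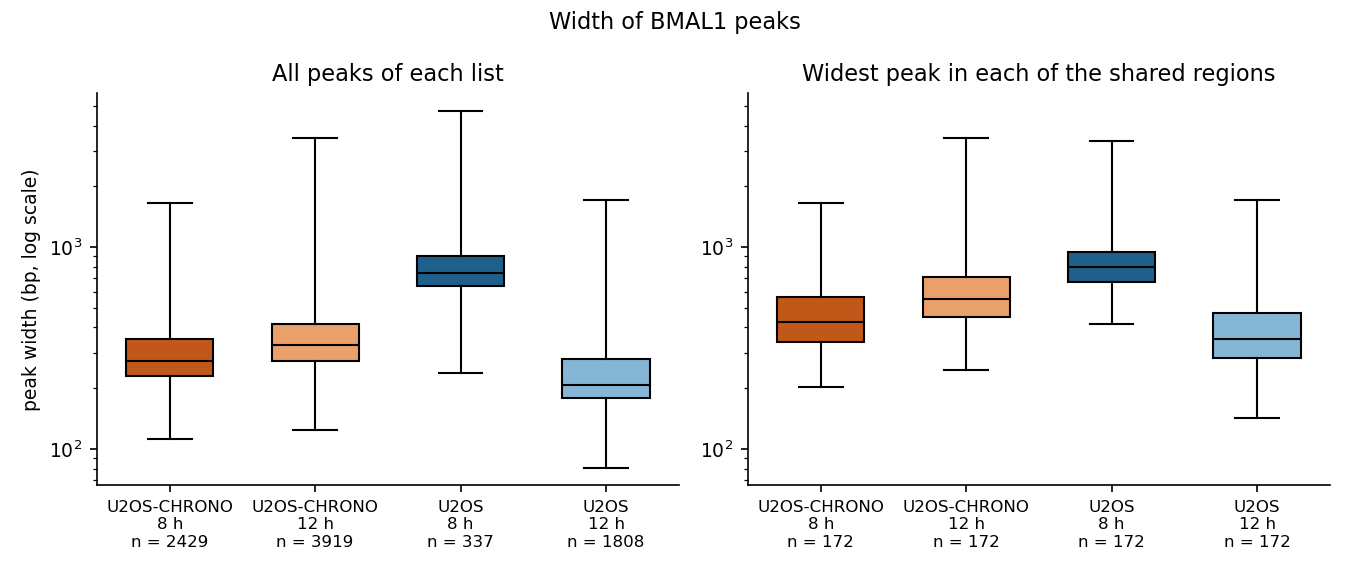
Width of BMAL1 peaks in bp on a log axis for each list, for all peaks on the left and for the widest peak in each of the 172 regions of all 4 lists on the right; boxes show quartiles with the median line and whiskers the full range. U2OS at 8 h has the widest peaks in both panels, with medians of 743 and 801 bp.

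About the same number of core clock genes had a BMAL1 peak in all 4 lists, short or long. Of 20 core clock genes, 10 and 10 had a peak within 1 kb of a gene end in U2OS-CHRONO at 8 and 12 h, and 10 and 9 did in U2OS. The share of all 20037 protein-coding genes with such a peak was 2.75% and 4.25% in U2OS-CHRONO and 0.484% and 2.16% in U2OS, so the count of clock genes did not follow list length as that of all genes did. PER1, PER3, CRY1, CRY2, NR1D1, NR1D2, DBP and BHLHE40 had a gene-end peak in all 4 lists, as did 73 genes (0.364%) in total. NR1D1, which encodes REV-ERB alpha, a repressor of BMAL1 transcription, scored 1128 and 2932 in U2OS-CHRONO and 561 and 1247 in U2OS, which was the highest score of both U2OS-CHRONO lists and the fourth of both U2OS lists. DBP, an output activator, scored 1054 and 1586 in U2OS-CHRONO and 809 and 1617 in U2OS, in a peak it shares with its neighbour CA11. The strongest TEF peak lay inside the gene, over the inner promoter, with scores of 1079 and 1380 in U2OS-CHRONO and 933 and 2046 in U2OS. That peak was the top of both U2OS lists and among the top 3 of both U2OS-CHRONO lists. PER2, which had no gene-end peak, had a peak over a RefSeq promoter inside the gene (chr2:238288561-238288860, minus strand), which scored 341 and 595 in U2OS-CHRONO and 209 and 474 in U2OS. With peaks inside the gene or within 5 kb counted, 12 and 13 core clock genes had a peak in U2OS-CHRONO and 13 and 12 in U2OS, against 7.96% and 11.5% of all genes in U2OS-CHRONO and 1.3% and 5.88% in U2OS.

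A few core clock genes differed between the lines. In the lists as deposited and with the 1 kb window, HLF was the only gene with a gene-end peak at both U2OS times and neither U2OS-CHRONO time (1 of 20037, 0.00499%). Its peak scored 54.4 at 8 h and 138 at 12 h in U2OS, and both lines had a peak there at all 4 other times. CIART, which encodes CHRONO itself, had a single gene-end peak among the 4 lists, in U2OS at 8 h, with a score of 85.2. Both lines had a CIART peak at all 4 other times, and the Myc list had one as well. BHLHE41, which encodes the E-box repressor DEC2, had a gene-end peak with scores of 148 and 176 in U2OS-CHRONO at 8 and 12 h and none in U2OS at either time, although both lines had one at all 4 other times. A stronger site about 5 kb from the other end of BHLHE41 had a peak in all 4 lists, with scores of 502 and 932 in U2OS-CHRONO and 243 and 539 in U2OS. The outer TEF promoter had weak peaks in U2OS-CHRONO alone at 8 and 12 h, with scores of 71.2 and 57.3, both among those removed when the lists were made equal. At the other times TEF had a gene-end peak at 4 of 4 in U2OS-CHRONO and 3 of 4 in U2OS. At equal list sizes, 7 and 9 core clock genes kept a gene-end peak in U2OS-CHRONO, where the share of all genes was 0.444% and 2.33%, and 10 and 9 in U2OS. The PER1, CRY1 and TEF gene-end peaks of U2OS-CHRONO at 8 h fell below the limit. None of the 4 lists held a gene-end peak for the activators BMAL1, CLOCK, NPAS2 and BMAL2, for the receptors RORA and RORB, or for NFIL3, a repressor that competes with the PAR-bZIP factors.

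**Figure D3:**
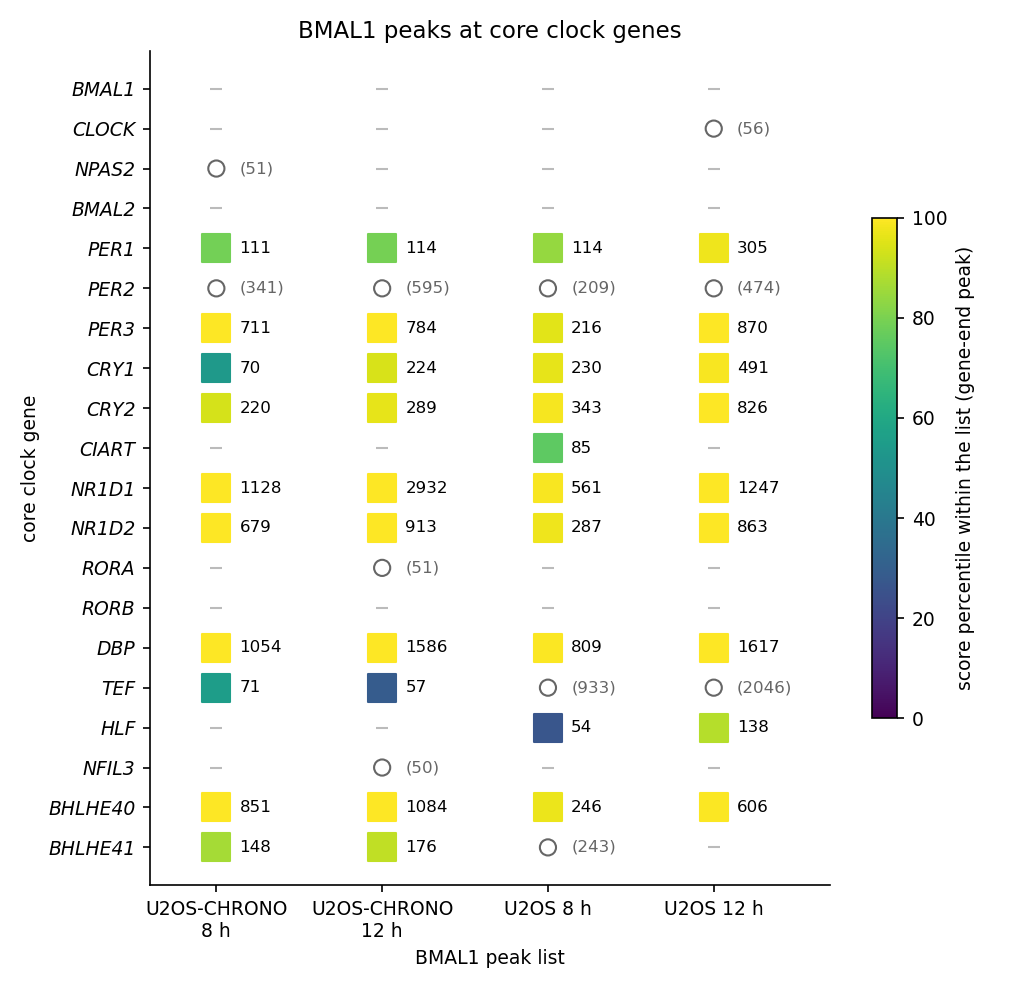
Score of the BMAL1 peak at each core clock gene (rows) in each list (columns), as numbers; squares are peaks within 1 kb of a gene end, coloured by score percentile within that list, open circles with bracketed scores are the strongest peaks elsewhere in the gene or within 5 kb where there is no gene-end peak, and dashes mark no peak. HLF has squares in U2OS alone and BHLHE41 in U2OS-CHRONO alone, and 8 genes have squares in all 4 lists.

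Genes with a gene-end peak at both U2OS-CHRONO times and neither U2OS time numbered 197 of 20037 (0.983%), and 14 (0.0699%) at equal list sizes. The highest-scoring of the 14 by percentile were TSPAN4, RNF43, ZFAT and ATIC. TSPAN4, a tetraspanin, scored 274 and 401 in U2OS-CHRONO at 8 and 12 h, but this call is set by the window, since U2OS at 12 h had a peak with a score of 134 at the same site that began 1 bp outside the 1 kb limit. RNF43, a ubiquitin ligase that removes Wnt receptors from the cell surface, scored 272 and 328, and its region (chr17:58417343-58417916) was the highest-placed U2OS-CHRONO-only region of all. ZFAT, a zinc-finger gene, scored 205 at both times. ATIC, which carries out the last steps of purine synthesis, scored 227 and 183. ELL, a transcription elongation factor, scored 167 and 215. The other members were RFESD, HDDC2, RMP64, the corepressor gene CBFA2T2, the ETS factor gene ELK4, BORCS6 of a complex that positions lysosomes, BHLHE41, and the neighbours ACTMAP and SNRPA, which share 1 peak with scores of 150 and 187. In U2OS, RNF43, ZFAT, ATIC, ELL, RFESD, ELK4, CBFA2T2, BORCS6 and BHLHE41 had a gene-end peak at all 4 other times, TSPAN4, HDDC2, ACTMAP and SNRPA at 3, and RMP64 at 2. Further down the full-length comparison, LY6K, SLC39A11, NAA30 and the glycogen primer gene GYG1 had scores from 121 to 141 at 8 h and from 159.8 to 213 at 12 h in U2OS-CHRONO.

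The opposite list of genes was short. At equal list sizes, 7 genes (0.0349%) had a gene-end peak at both U2OS times and neither shortened U2OS-CHRONO list. They were HLF, TXNIP, PPAT, GBE1, the neighbours PARP3 and RRP9, which share a peak, and TPTEP2-CSNK1E. TXNIP, an inhibitor of glucose uptake, scored 70.9 and 59.9 in U2OS-CHRONO and 86.2 and 212 in U2OS. At the site called in U2OS, PPAT, which opens purine synthesis, scored 51.2 and 50.4 in U2OS-CHRONO and 62.8 and 123 in U2OS. The strongest PPAT gene-end peaks of U2OS-CHRONO, 75.2 and 57.8, lay outside that site. GBE1, the glycogen branching enzyme, scored 62.1 and 52.3 in U2OS-CHRONO and 55.0 and 157 in U2OS at the site called in U2OS. The strongest GBE1 gene-end peak of U2OS-CHRONO at 12 h, 61.6, lay outside that site. All but HLF thus had at least 1 U2OS-CHRONO gene-end peak in the full lists, with scores below the limit that shortening set.

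Gene lists outside the clock differed in how many members had a gene-end peak, against 2.75% and 4.25% of all genes in U2OS-CHRONO and 0.484% and 2.16% in U2OS. Of 26 cytosolic ribosomal protein genes, 4 and 4 had a gene-end peak in U2OS-CHRONO at 8 and 12 h and 0 and 0 in U2OS. RPS2, RPL23 and RPL27 were among them at both times, with scores from 51.6 to 96.3, and at equal list sizes the counts were 0 and 2 in U2OS-CHRONO and 0 and 0 in U2OS. At the other times U2OS had a gene-end peak at RPL27 at 4 of 4, at RPL23 at 2 and at RPS2 at 0. Of 30 MYC target and ribosome biogenesis genes, 7 and 11 had a peak in U2OS-CHRONO and 2 and 9 in U2OS, shares of 23.3% and 36.7% in U2OS-CHRONO and 6.67% and 30% in U2OS. NPM1, a nucleolar chaperone, was the 1 among them with a gene-end peak in U2OS-CHRONO alone, at scores of 64.9 and 92.3. U2OS had a gene-end peak there at all 4 other times. A separate site inside NPM1, just past the 1 kb limit, had a peak in all 4 lists. It scored 60.1 and 191 in U2OS-CHRONO and 109 and 185 in U2OS. The call for the gene thus rests on the window, while the gene-end site itself had no U2OS peak at 8 or 12 h. Of 26 lysosome and autophagy genes, 3 and 3 had a peak in U2OS-CHRONO and 0 and 6 in U2OS, so the highest count was not in the longest list. SIRT1, an NAD-dependent deacetylase that acts on the clock proteins, scored 106 and 92.4 in U2OS-CHRONO and had no peak in U2OS at either time, though it had one in U2OS at 2 of the 4 other times. NDUFB8, a subunit of respiratory complex I, scored 55.6 and 56.1 in U2OS-CHRONO. Both peaks were among those removed at equal list sizes. In the full lists NDUFB8 had a peak at all 4 other times in U2OS-CHRONO and at none in U2OS. Genes induced by glucocorticoids, the class of hormone that dexamethasone belongs to, had a peak at 3 and 1 of 21 in U2OS-CHRONO and 1 and 2 in U2OS, with PER1 in all 4 lists. Of 14 osteoblast genes, 0 and 1 had a gene-end peak in U2OS-CHRONO and 0 and 0 in U2OS. Of 20 genes of other cell types, 1 and 1 had one in U2OS-CHRONO and 0 and 1 in U2OS. In these last 2 lists no count was above 1 gene.

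By position, in the lists as deposited, the U2OS-CHRONO-only regions lay farther from genes than the shared ones. Within 1 kb of a gene end were 21.9% of the 781 U2OS-CHRONO-only regions (19.1 to 24.9%), 1 of the 7 U2OS-only regions and 40.1% of the 172 shared regions (33.1 to 47.6%), against 17.1% of all 5904. The median distance to a gene end was 14.7 kb for U2OS-CHRONO-only regions, 22.2 kb for U2OS-only regions and 3.50 kb for shared regions. At 337 peaks in each list, the gene-end share was 15.7% of 83 U2OS-CHRONO-only regions (9.39 to 25.0%), 65.7% of 35 U2OS-only regions (49.2 to 79.2%) and 29.7% of 91 shared regions (21.3 to 39.7%), against 23.6% of all 721. The share of the U2OS-CHRONO-only regions was thus above that of all regions in the full lists and below it at this size, where its interval overlaps that of the shared regions. The median distance of the U2OS-only regions was 0 kb at this size. With equal numbers at each time, the shares were 20.7% of 58 and 33.3% of 18, and the intervals of these 2 shares overlap (12.3 to 32.8% and 16.3 to 56.3%). The intervals are Wilson intervals for counting error only. The Myc list comes from the U2OS-CHRONO line and, unlike the BMAL1 lists, has no time or dexamethasone label. Its peaks overlapped 21.9% of the U2OS-CHRONO-only regions, 0 of the 7 U2OS-only regions and 68.6% of the shared regions, against 12.9% of all regions. At 337 peaks in each list they overlapped 45.8%, 25.7% and 86.8%, against 43.0% of all regions, so the share of the U2OS-CHRONO-only regions was then near that of all.

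The U2OS-CHRONO-only regions were mostly weaker than the shared ones within the same list. These classes were made from the same lists, and the shared one also needed a call in both U2OS lists. Median score percentiles in U2OS-CHRONO at 8 and 12 h were 92.0 and 95.7 for the shared regions and 58.5 and 70.3 for the U2OS-CHRONO-only ones. A U2OS peak of 8 or 12 h lay within 1 kb of 14 of them and within 5 kb of 39. They made up between 9.03% of the regions on chromosome 18 and 20.2% of those on chromosome 13. After RNF43, the highest-placed were an intergenic region 2655 bp from MC3R (chr20:56245669-56246077, scores of 269 and 319), 1 between genes on chromosome 5 (chr5:115349224-115349668, 225 and 252) and 1 near TRAF3IP3 (chr1:209747670-209748146, 267 and 203). Among the U2OS-only regions, 1 inside CRY2 stood out, at chr11:45859572-45860312 and 12454 bp from the gene end. It scored 179 and 280 in U2OS at 8 and 12 h. At the other times it had a peak at 1 of 4 in U2OS-CHRONO and at 4 of 4 in U2OS. Regions inside KLHDC4 (chr16:87725535-87726273, scores of 58.8 and 72.0) and far from genes on chromosome 14 (chr14:84465461-84466319, 55.0 and 62.4) were called at 0 of 4 other times in U2OS-CHRONO and at 4 of 4 in U2OS. A higher-placed region on chromosome 12 (chr12:36732204-36732440), 1584247 bp from the nearest gene end, scored 147 and 76.1. Its width of 237 bp was the smallest of any peak of U2OS at 8 h, a list of wide peaks. It was called at 0 of 4 other times in U2OS-CHRONO and at 2 of 4 in U2OS.

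The other 4 times, which took no part in choosing the regions, showed how far each pattern held over the cycle. Of the 781 U2OS-CHRONO-only regions, 722, 764, 766 and 738 had a peak in U2OS-CHRONO at 0, 4, 16 and 20 h, and 390, 554, 298 and 529 had one in U2OS. The mean was 748 ± 21.3 regions in U2OS-CHRONO and 443 ± 120 in U2OS (SD, n = 4 times), and U2OS-CHRONO was the higher at each of the 4. The difference of 305 ± 123 gave a two-sided exact paired permutation p of 0.13, which is the lowest value within reach of 4 pairs. Its Benjamini-Hochberg adjusted value over 3 tests was 0.1875, so it did not pass 0.05. The longer U2OS-CHRONO lists at these times move with this count. Only 107 of the 781 (13.7%) had no U2OS peak at any other time, and 190 (24.3%) had a U2OS peak at all 4. A set of 74 (9.48%) was called at all 6 U2OS-CHRONO times and at no U2OS time. At equal number at each time, 1 of 58 U2OS-CHRONO-only regions (1.72%) was so called. With 337 peaks in each of the 4 lists it was 1 of 83 (1.20%). Of the 7 U2OS-only regions, 4, 3, 3 and 2 had a peak in U2OS-CHRONO at 0, 4, 16 and 20 h, and 6, 6, 7 and 7 had one in U2OS. The difference, U2OS-CHRONO minus U2OS, was -3.5 ± 1.29 regions (SD, n = 4 times), with U2OS-CHRONO the lower at each time, at an exact paired permutation p of 0.13, again the smallest possible, and 0.1875 adjusted. U2OS had the shorter list at each of these times. Of the line-only regions, 674 of the 781 and 4 of the 7 were thus called in the opposite line at some other time. At equal list sizes, the 58 U2OS-CHRONO-only regions all had a U2OS-CHRONO peak at each of the 4 times, and 44, 54, 37 and 52 had a U2OS peak. The 18 U2OS-only regions had a U2OS-CHRONO peak in 10, 12, 11 and 12 and a U2OS peak in 16, 16, 18 and 18. The set with 337 peaks cut the 4 lists of 8 and 12 h alone and left those of the other times at full length. Its counts are therefore not on the same footing as those just given, for which the other times were shortened too. The 83 U2OS-CHRONO-only regions all had a U2OS-CHRONO peak at each time, and 77, 81, 72 and 81 had a U2OS peak, with 84.3% called in U2OS at all 4. The 35 U2OS-only regions had a U2OS-CHRONO peak in 35, 34, 33 and 34 and a U2OS peak in 34, 35, 35 and 35, with 94.3% called in U2OS-CHRONO at all 4 times. At 0 h the U2OS-only regions were therefore called in 1 more case in U2OS-CHRONO than in U2OS. The order of the times was compared across the lines as well. Of 1573 regions called in U2OS at 12 h and not at 8 h, 517 (32.9%) had a peak in U2OS-CHRONO at 8 h and 638 (40.6%) at 12 h. With 337 peaks in each list, the shares of such regions were 40.9% and 39.2% of 181.

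**Figure D4:**
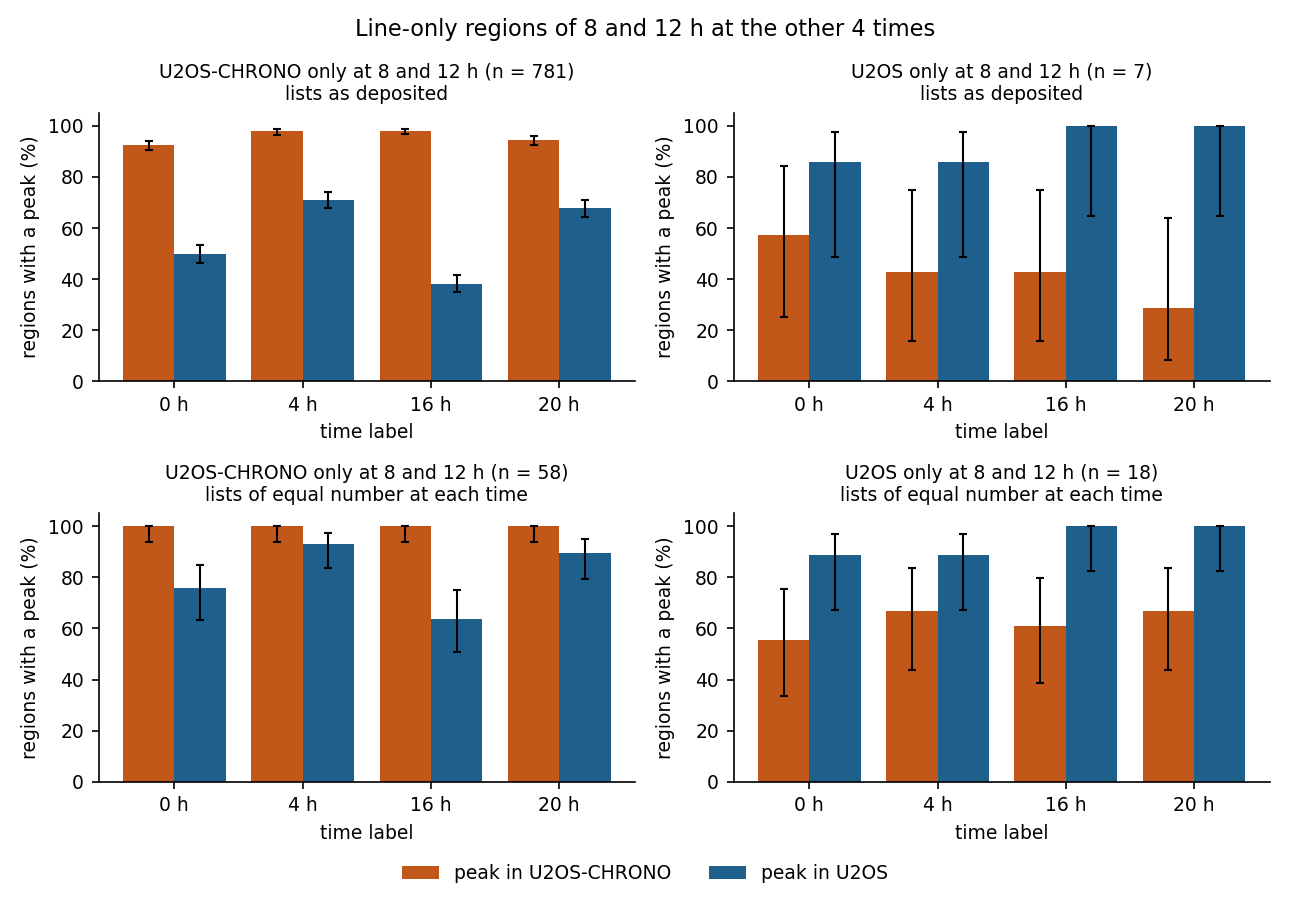
Share of line-only regions of 8 and 12 h with a BMAL1 peak at the other 4 times in U2OS-CHRONO (orange) and U2OS (blue), as percent with Wilson 95% intervals; columns give the region class and rows the lists as deposited and of equal number at each time. In these panels the regions of each class were called more often in the line that defined them at all 4 times, and a large share was called in the other line too.

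Sites that both lines held at both times were scored in a different order in the lines. Over the 172 shared regions, the Spearman rank correlation of scores was 0.85 between U2OS-CHRONO at 8 and 12 h and 0.78 between U2OS at 8 and 12 h. Between the lines it was 0.46 at 8 h, 0.52 at 12 h, 0.51 for U2OS-CHRONO at 8 h with U2OS at 12 h, and 0.47 for U2OS-CHRONO at 12 h with U2OS at 8 h. These correlations describe 172 sites in 4 libraries and carry no test. Ranked among the same 172 regions in each list, 59 stood lower in U2OS-CHRONO than in U2OS at both times, 62 stood higher at both times, and 51 did neither. The regions named next were chosen after their ranks were seen, except those of genes already named. The promoter of CRY1, a repressor of the BMAL1 and CLOCK pair, ranked 159 and 103 in U2OS-CHRONO and 14 and 17 in U2OS, with scores of 69.9 and 224 against 230 and 491. CRY2, its paralogue, ranked 76 and 82 in U2OS-CHRONO and 6 and 8 in U2OS, with scores of 220 and 289 against 343 and 826. The PER1 gene-end peak ranked 131 and 153 in U2OS-CHRONO and 51 and 45 in U2OS. The strongest PER1 peak, within 5 kb outside that end (chr17:8156139-8157177), ranked 4 and 4 in U2OS-CHRONO and 2 and 2 in U2OS. CIPC, whose product inhibits CLOCK, ranked 148 and 126 in U2OS-CHRONO and 62 and 86 in U2OS. Other core clock genes stood near the top in both lines. The mean rank over 8 and 12 h at NR1D1 was 1 in U2OS-CHRONO and 4 in U2OS, at DBP 2.5 and 3, at BHLHE40 5.5 and 10.5, at NR1D2 8.5 and 8, and at PER3 9.5 and 10.5. The order ran the other way at CDK4, a kinase of the G1 phase, which ranked 19 and 24 in U2OS-CHRONO and 88 and 90 in U2OS. The largest shift in that direction was at a chromosome 3 region not within 1 kb of a gene end (chr3:48039677-48040253). It had ranks of 39.5 and 23 in U2OS-CHRONO and 172 and 132.5 in U2OS.

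The order also differed by position. Among the 69 shared regions at a gene end, 58.0% at 8 h and 60.9% at 12 h ranked lower in U2OS-CHRONO than in U2OS, against 44.7% and 36.9% of the other 103 regions. In the libraries of 0, 4, 16 and 20 h the shares at gene ends were 49.3%, 49.3%, 55.1% and 52.2%, and those elsewhere 44.7%, 43.7%, 38.8% and 45.6%. The gap in those libraries was 8.25 ± 5.39 percentage points (SD, n = 4 times), in the same direction at 4 of 4 times, with a two-sided exact permutation p of 0.13, the smallest possible. This comparison was added after the data were seen and was not among the 3 tests adjusted together.

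**Figure D5:**
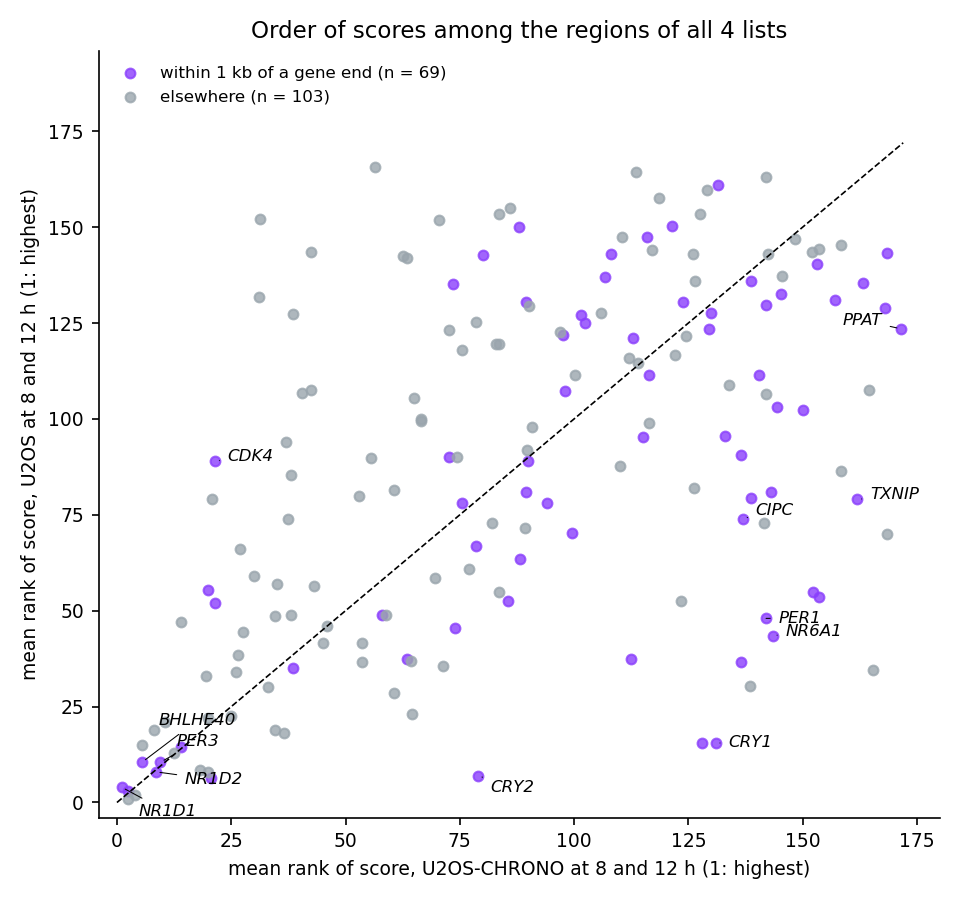
Mean rank of the score among the 172 regions of all 4 lists, over 8 and 12 h, in U2OS-CHRONO (horizontal axis) and in U2OS (vertical axis), rank 1 being the highest score; purple points lie within 1 kb of a gene end, grey points elsewhere, and the dashed line marks equal rank. CRY1, CRY2, PER1, CIPC and TXNIP lie below the line, ranked lower in U2OS-CHRONO, CDK4 lies above it, and NR1D1, NR1D2, PER3 and BHLHE40 lie near its lower end.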

How the data were processed

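Chromatin immunoprecipitation of BMAL1 gave 1 deposited peak list per line and time. The score that each peak carries was made by the authors in a way the sources do not state, and the lowest in any list was 50. Per the submitters' processing notes the build was hg38 and the tools were HOMER 4.10.3, MACS 1.4.2 and bedtools, with no role given. Not given in the sources used here are the aligner, the control for peak calling and the read depth, so the precision behind a peak is unknown. Peaks were treated as called separately in every library. The 3 input libraries were not analysed here.

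Peaks sharing at least 1 bp were joined over the 4 lists into regions, and a region was line-only with a peak at both times of 1 line and neither of the other. Lists were shortened by score to equal number at each time and over all 4 lists. Gene places came from the RefSeq table of GRCh38.p14, the same assembly as hg38 (20037 protein-coding genes). It gives no strand, so a gene end means the 1 kb on each side of the first and the last base of a gene. Exons and UTRs were not used. Peak lists hold no expression, so the cell type was not checked against markers. Of 258 symbols in 13 gene lists, 256 were found. A few genes are not reported here and were left out of the lists. Sequences came from the RefSeq promoter table, which covers part of the genes (15843) and none on chromosome 8. No genome was used.

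The times served as pairs, from their labels. Regions at the other 4 times were compared by an exact permutation test that flips the sign of each pair (two-sided), and list lengths by exact permutation of the time labels. Benjamini-Hochberg adjustment ran over 3 tests. Intervals are 95% Wilson intervals for counting error only. The members and lists were chosen with earlier results of these data known. Genes named are all core clock genes, up to 6 line-only and up to 4 common members of each other list, the 15 line-only genes of highest mean score percentile in each direction at each list size, the 10 highest common genes, and the 10 highest line-only regions of each direction; a few of these are given as ranges or left out for length. Alternatives were a score of at least 100, other overlap rules, a fixed width, chromosomes 1 to 22 and X alone, a 5 kb window, no pairing and each time left out. The order of scores in shared regions was added after the data were seen. The joining was tested on simulated lists, and overlap counts equalled those of bedtools 2.31.1 in 12 of 12 list pairs. Python 3.11.15, NumPy 2.4.6, SciPy 1.17.1, pandas 2.3.3 and matplotlib 3.10.9 were used.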

Additional observations from a re-analysis of the deposited data

Results flagged for a closer look

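The median peak width of U2OS at 8 h, 743 bp, stood apart from the other 5 U2OS times. The next widest U2OS list had a median of 368 bp, and the gap made up 0.70 of the whole range over 6 libraries. Of 8 sets of 6 libraries examined in this way, for both lines, 1 had such a value, where chance gives about 1 in 20 sets. The wide peaks of this list were known before the sets were examined, so the flag carries no weight of its own. The cause of the width was not tested.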

How the results depend on the processing

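Joining rules changed the region counts little. U2OS-CHRONO-only, U2OS-only and common regions numbered 777, 7 and 173 with an overlap of 50% of the shorter peak, 783, 7 and 173 with a fixed width of 500 bp or with centres within 500 bp, and 781, 7 and 172 on chromosomes 1 to 22 and X. List length and score limits changed them. They numbered 58, 18 and 116 at equal number at each time, 83, 35 and 91 at equal number over the 4 lists, and 296, 3 and 53 at a score of at least 100. Each time alone, which asks for fewer lists by construction, gave 2236, 155 and 181 without 12 h, and 3090, 950 and 827 without 8 h. With a 5 kb window 33.8% of U2OS-CHRONO-only regions lay at a gene end. Genes with a gene-end peak numbered 333 for U2OS-CHRONO alone, 2 for U2OS alone (HLF and LRRC20) and 120 in all 4 lists with that window, 14, 7 and 40 at equal number at each time, and 71, 1 and 24 at a score of at least 100. The 1 U2OS-only gene was then AFG3L2 and no longer HLF. In the full lists AFG3L2 had a gene-end peak in all 4, with U2OS-CHRONO scores of 94.7 and 78.35, below that limit. At the other 4 times, dropping the pairing of times, which leaves no replicate block, kept the differences at 305 and -3.5 regions and gave an exact permutation p of 0.0286 for each. That p treats the times of a line as replicates, which they are not, so it carries no weight of its own. With the pairing kept, leaving out each of the other 4 times gave differences from 250 to 337 and from -4.0 to -3.0 regions. The paired permutation p was then 0.25, the smallest that 3 pairs allow. The log2 difference in list length between 8 and 12 h and the other times was 0.29 without 8 h (exact permutation p = 0.80) and lay between 0.95 and 2.02 with any other time left out (p from 0.10 to 0.40). Since 8 and 12 h were chosen for their short lists, these values of the list-length test carry no weight of their own.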
